A study of Rattus norvegicus with 23 samples.

Results

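The genes described here are 45 genes of the cell division cycle, chosen by name as a module: 9 genes of DNA replication (S phase), 34 genes of mitosis and cytokinesis, and the transcription factors E2f1 and Foxm1. Of the 45 genes, 44 were found among the 32552 gene identifiers of the count tables through the symbols in the authors' tables. Ccnb2 (cyclin B2) carries no identifier there and is not analysed here. In kidney all 44 passed the filter on low counts. In heart 39 passed, and Plk1, Ttk, Pbk, Melk and Birc5 did not.

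RNA sequencing was done on 11 heart and 12 kidney libraries of Sprague-Dawley rats aged 13 weeks, all collected 4 weeks after surgery. Sham rats had sham surgery (3 heart and 4 kidney libraries). NX rats had a 5/6 partial nephrectomy, a model of chronic kidney disease (4 libraries in each organ). AVF+NX rats had the same 5/6 nephrectomy plus a jugular vein joined end to side to the carotid artery, an arteriovenous fistula (4 libraries in each organ). No rat had a fistula alone, so the fistula's effect is seen only against a nephrectomised background. The sources used here do not give the heart chamber or the part of the kidney sampled, or how hearts and kidneys match by rat. The labels give the replicates as separate samples.

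Cells copy their DNA in S phase and part the copies in mitosis. The Mcm2 to Mcm7 proteins form the helicase that opens DNA, Pcna is the clamp that holds DNA polymerase, and Rrm2 and Tyms make deoxynucleotides. Cyclins A and B with Cdk1 start mitosis, the Aurora, Polo-like and Bub kinases control it, kinesins and spindle proteins move the chromosomes, and anillin, Prc1 and Ect2 help to divide the cell. E2F factors are known to drive S phase genes, whereas mitotic genes are known to be held down or switched on through the CHR element, which is read by complexes that hold Lin54 and, in dividing cells, Mybl2 and Foxm1. Most adult heart muscle and kidney tubule cells are at rest, and messages of this module are usually low there. Bulk levels cannot tell which cell type holds them. In bulk tissue, more dividing cells and more message per cell cannot be told apart.

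The promoters of the members are shown first because the comparisons below turn on the difference between S phase and mitotic members. Promoter sequences were taken from RefSeq on the GRCr8 assembly, where 36 of the 45 members matched by symbol (7 S phase and 29 mitotic). Each window ran from 250 bases before to 50 bases after the annotated start. It was searched on both strands for the E2F site (TTTCCCGC, TTTGCCGC, TTTGGCGC or TTTCGCGC), the CHR element (TTTGAA or TTCGAA) and the CCAAT box (CCAAT). The E2F site was in 6 of the 7 S phase promoters, in 1 of the 29 mitotic promoters (Cdk1) and in 2.14% of all 33469 rat promoter windows. The CHR element was in 23 of 29 mitotic promoters (79.3%), in 2 of 7 S phase promoters (28.6%) and in 19.7% of all windows. CCAAT boxes were in 75.9% of the mitotic and 71.4% of the S phase promoters, against 37.5% of all windows. A CHR element and a CCAAT box stood together in 65.5% of mitotic promoters, in 14.3% of S phase promoters and in 7.95% of all windows. A match is a run of letters and does not show that a factor binds there.

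The 140 bases before the start are printed 5′ to 3′ for 3 S phase members, with every match in capitals: an E2F site near the start in Mcm2 and Mcm5 and far from it in Mcm6, and CCAAT boxes (ATTGG on the other strand) in Mcm5 and Mcm6. The windows are chr4:122918095-122918234 (minus strand), chr19:13488673-13488812 (plus) and chr13:42404353-42404492 (minus). In Mcm2 and Mcm6 the matches on the 2 strands overlap and make 1 run of capitals.
Mcm2: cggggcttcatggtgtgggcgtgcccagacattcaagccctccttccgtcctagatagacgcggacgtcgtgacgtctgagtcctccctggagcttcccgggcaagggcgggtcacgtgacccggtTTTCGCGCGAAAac
Mcm5: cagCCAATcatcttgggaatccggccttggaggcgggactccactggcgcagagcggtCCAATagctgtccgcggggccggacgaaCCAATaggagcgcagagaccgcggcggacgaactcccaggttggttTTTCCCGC
Mcm6: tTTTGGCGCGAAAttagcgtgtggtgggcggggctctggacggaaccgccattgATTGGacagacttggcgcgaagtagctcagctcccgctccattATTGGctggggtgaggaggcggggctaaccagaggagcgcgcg

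The same stretch is printed for 5 mitotic members. Cdk1 holds 2 CHR elements and the E2F site, Aspm and Prc1 hold a CHR element close to the start, Mki67 holds 2 CHR elements, of which the second overlaps a CCAAT box, and Kif11 has a CCAAT box and no CHR element. Kif11 is shown because its log2 fold changes in kidney were below 0, although it was called higher in AVF+NX hearts. Bub1, Ccnb1, Kif20a and Melk held no CHR element either and were called higher in AVF+NX kidneys. Aurka also held none and was not called there. A link between motif and change was not tested. The CCAAT boxes of all 5 printed members are in capitals too. The windows are chr20:19265153-19265292 (plus strand), chr13:53625444-53625583 (plus), chr1:199952594-199952733 (minus), chr1:143659341-143659480 (plus) and chr1:244536727-244536866 (plus).
Cdk1: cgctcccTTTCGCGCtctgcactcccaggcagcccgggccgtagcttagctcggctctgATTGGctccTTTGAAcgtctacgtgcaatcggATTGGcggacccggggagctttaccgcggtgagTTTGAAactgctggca
Aspm: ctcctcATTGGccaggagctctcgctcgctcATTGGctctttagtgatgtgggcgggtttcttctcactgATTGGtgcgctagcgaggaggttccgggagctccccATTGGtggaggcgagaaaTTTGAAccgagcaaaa
Mki67: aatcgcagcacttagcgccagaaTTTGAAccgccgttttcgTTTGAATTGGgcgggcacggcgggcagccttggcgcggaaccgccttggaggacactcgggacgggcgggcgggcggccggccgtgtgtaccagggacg
Prc1: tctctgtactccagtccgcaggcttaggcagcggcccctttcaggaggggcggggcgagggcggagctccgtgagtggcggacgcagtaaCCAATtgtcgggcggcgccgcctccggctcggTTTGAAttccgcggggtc
Kif11: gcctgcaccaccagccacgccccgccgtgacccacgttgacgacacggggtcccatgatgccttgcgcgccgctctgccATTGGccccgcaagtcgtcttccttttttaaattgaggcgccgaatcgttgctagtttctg

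Library totals ran from 9069354 to 48079431 counts. Heart AVF+NX held the 3 deepest libraries of the series, so heart depth moved with the group. The fourth heart AVF+NX library, at 11889483 counts, was about as deep as the Sham libraries (9894716 to 11866042). An index of 63 short RNAs (the mean standardised log2 level of genes with Rfam names) was 0.68 to 0.72 in heart Sham and -0.78 to -0.17 in heart AVF+NX, and it split the heart NX libraries into 0.99 and 0.55 (libraries 1 and 4) and -0.92 and -0.54 (libraries 2 and 3). Summed cardiomyocyte markers were 68650 to 89270 CPM (counts scaled to a common library total) in heart and 16.7 to 29.4 CPM in kidney, and tubule markers 13990 to 26770 CPM in kidney, so tissue labels and markers matched. Counts per member were small: the median count over members and libraries was 11 in heart Sham, 76.5 in heart AVF+NX, 21 in kidney Sham and 65 in kidney AVF+NX.

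In Sham organs the highest members were S phase genes. Per kilobase of transcript, Pcna was the highest member in Sham heart (20.03 ± 2.48 CPM per kb, mean ± SD, n = 3) and in Sham kidney (26.0 ± 0.94, n = 4). Tyms followed in both organs (8.02 ± 0.34 in heart and 15.4 ± 1.83 in kidney). Most mitotic members lay far lower, with Ttk at 0.028 ± 0.031 CPM per kb in heart and 0.086 ± 0.049 in kidney. Smc4, a condensin subunit that folds chromosomes, ranked 3 in heart at 5.43 ± 0.50 CPM per kb and was at 7.56 ± 0.47 in kidney. The spindle kinesin Kif11 ranked 3 in kidney, at 9.23 ± 2.45 CPM per kb. The SDs of Mcm7 (8.56 ± 0.51) and of Kif11 overlap in kidney, so their order is not resolved. Nor is that of Smc4 and Mcm7 (5.145 ± 0.69 CPM per kb) in heart, whose SDs overlap too.

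After nephrectomy with a fistula, mitotic genes were higher in heart and no replication gene was called. Against Sham, 16 of the 39 members tested rose in AVF+NX hearts and 0 fell (edgeR quasi-likelihood test, adjusted p below 0.05 over 12794 genes), where 15.4% of all genes tested were called higher and 18.6% lower. The 16 were all mitotic (16 of 28), and 0 of 9 S phase members was called, or had a p below 0.05 before adjustment. The median log2 fold change was 1.38 over the mitotic members tested, 0.08 over the S phase members and 0.01 over all genes. By role, 5 of 7 chromosome and kinetochore genes, 5 of 8 spindle genes, 4 of 6 cytokinesis genes and 2 of 7 cyclins and kinases rose. Sham and AVF+NX libraries did not overlap for 18 members, all higher and all mitotic (14 of the 16 called among them), against 22.8% of all genes without overlap and higher. Of the 39 members tested, 8 reached the level the count filter asks for (0.841 CPM in at least 3 libraries) only with the AVF+NX libraries counted: Bub1b, Ccna2, Cdk1, Ect2, Kif20b, Ndc80, Nuf2 and Rrm2. A rise in such genes is favoured by the filter, so the counts and medians over the members tested are given as descriptions. Among the other 31 members, 13 were called higher (13 of 21 mitotic members). The filter favours a rise in some of these 13 too. Kif11, Ckap2 and Kif23 reached its level in 0 Sham libraries and passed only with operated hearts counted.

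**Figure D1:**
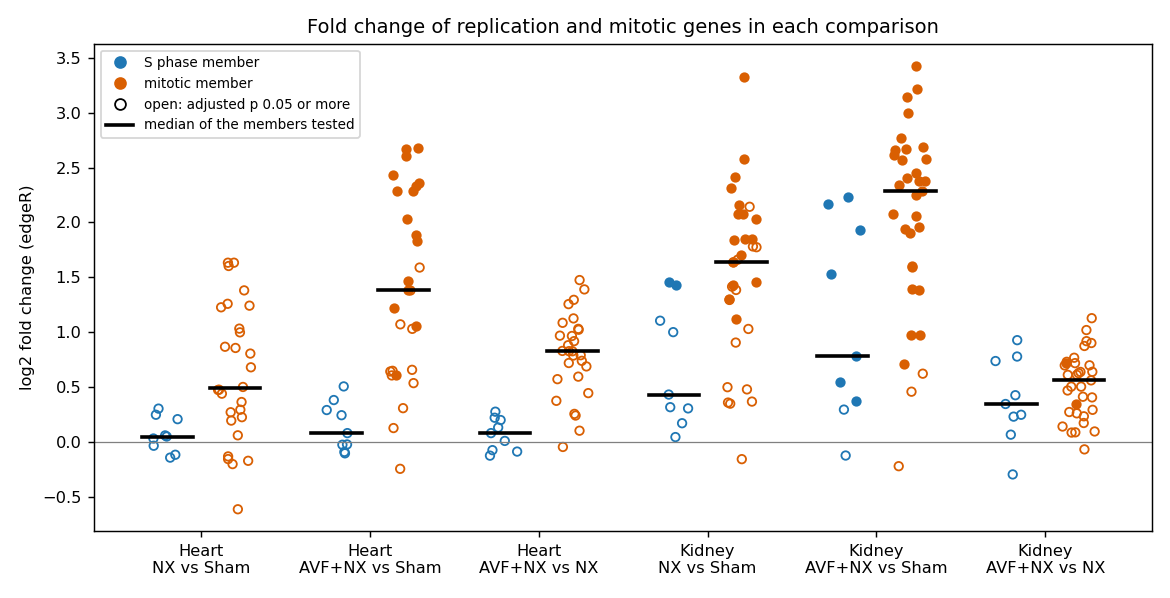
Log2 fold change (edgeR) of each S phase and mitotic member in the 6 comparisons within an organ, with filled points for an adjusted p below 0.05 and bars at the median. In heart AVF+NX against Sham the mitotic median lay at 1.38 and the S phase median at 0.08, and in kidney they lay at 2.29 and 0.78.

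Among the replication genes in heart, the helicase subunit Mcm2 was at 10.9, 10.04 and 14.5 CPM in the 3 Sham libraries, 13.8, 12.3, 10.5 and 12.1 CPM in NX and 12.8, 10.8, 9.03 and 12.3 CPM in AVF+NX. The 3 groups overlap throughout. Mcm3 was at 1.39, 2.79 and 2.48 CPM in Sham, 2.71, 2.203, 2.42 and 3.75 in NX and 4.72, 3.16, 2.48 and 1.96 in AVF+NX, a log2 fold change of 0.51 ± 0.33 (SE) against Sham with an adjusted p of 0.247. Mcm4 was at 7.99, 10.5 and 12.2 CPM, 10.1, 13.7, 11.97 and 11.2 CPM and 15.6, 13.5, 9.99 and 10.8 CPM in the same order. Its AVF+NX and Sham ranges overlapped (log2 0.29 ± 0.18 against Sham). Mcm6 was at 4.97, 5.07 and 4.08 CPM in Sham, 4.48, 3.89, 4.28 and 5.96 in NX and 6.31, 6.87, 4.55 and 4.37 in AVF+NX. Pcna, the polymerase clamp, was nearly flat, at 25.4, 19.98 and 24.3 CPM in Sham, 28.1, 25.5, 21.1 and 21.9 in NX and 24.01, 23.6, 21.8 and 22.3 in AVF+NX, a log2 fold change of -0.02 ± 0.12 in AVF+NX. The other S phase members, Mcm5, Mcm7, Rrm2 and Tyms, had log2 fold changes of 0.08, -0.02, 0.38 and -0.10, with adjusted p of 0.626 to 0.91. Rrm2, at under 2 CPM, had an SE of 0.67, so a change of that size was not detectable at this depth.

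The transcription factors did not pass the test in heart. E2f1 was at 1.47, 1.14 and 1.51 CPM in Sham, 2.29, 0.821, 0.549 and 1.44 in NX and 1.45, 0.9899, 0.879 and 0.802 in AVF+NX, with the lowest and the highest library both in NX. Foxm1 was at 1.63, 0.932 and 0.975 CPM in Sham, 1.04, 1.64, 1.04 and 1.64 in NX and 2.29, 2.15, 1.19 and 1.604 in AVF+NX (log2 fold change 0.60 ± 0.34, adjusted p = 0.182).

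Cdk1, the kinase that starts mitosis, was at 0.489, 0.414 and 0.266 CPM in Sham, 1.77, 0.562, 0.604 and 0.0962 in NX and 2.47, 2.44, 1.45 and 1.51 in AVF+NX hearts. Cdk1, like Ccna2 and Bub1b, passed the count filter only through AVF+NX, which favours a rise. All 4 AVF+NX libraries of Cdk1 lay above all Sham libraries, and the rise was 5.04-fold (log2 2.33 ± 0.59, edgeR adjusted p = 0.0104). Its partner cyclin A2, Ccna2, was at 0.244, 0.725 and 0.443 CPM in Sham, 1.67, 0.432, 0.439 and 0.192 in NX and 2.04, 2.296, 1.32 and 0.624 in AVF+NX. The lowest AVF+NX library of Ccna2 lay inside the Sham range, and its adjusted p of 0.0409 became 0.0546 to 0.158 when any Sham library or any AVF+NX library but 4 was left out. The checkpoint kinase Bub1b was at 0.244, 0.518 and 0.532 CPM in Sham, 1.15, 0.475, 0.824 and 0.673 in NX and 1.94, 1.12, 0.571 and 0.802 in AVF+NX. Its Sham and AVF+NX libraries were apart, but it missed the threshold (log2 1.38 ± 0.54, adjusted p = 0.0623). Aurka, Aurkb, Bub1 and Ccnb1 were not called either, at log2 fold changes of -0.24 to 0.64. The 5 untested members had few counts in Sham hearts. Plk1 was at 0.652, 0.103 and 0.177 CPM in Sham and 1.23, 1.52, 0.791 and 0.624 in AVF+NX, where AVF+NX library 4 lay inside the Sham range. Ttk was at 0.0815, 0.207 and 0 CPM in Sham and 1.27, 1.37, 0.417 and 0.178 in AVF+NX. Pbk, a mitotic kinase, was at 0, 0 and 0.177 CPM in Sham and 0.846, 0.906, 0.615 and 0.0891 in AVF+NX. Library 4 of AVF+NX lay inside the Sham range for both. Melk was at 0.163, 0.103 and 0.0887 CPM in Sham and 1.13, 0.842, 0.505 and 0.267 in AVF+NX. Birc5 was at 0.0815, 0.414 and 0 CPM in Sham and 0.458, 0.779, 0.505 and 0.535 in AVF+NX. The AVF+NX libraries of Melk and Birc5 all lay above Sham.

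Mki67, the gene of the proliferation marker Ki-67 that coats mitotic chromosomes, was at 3.02, 4.76 and 3.72 CPM in Sham hearts, 16.5, 6.91, 7.36 and 6.54 CPM in NX and 24.7, 24.96, 12.8 and 10.9 CPM in AVF+NX. Both operated groups lay wholly above Sham, and AVF+NX was 4.87-fold higher (log2 2.28 ± 0.42, adjusted p = 0.00365). Top2a, the topoisomerase that untangles sister DNA, was at 1.63, 1.55 and 2.22 CPM in Sham, 7.39, 2.68, 2.14 and 2.89 in NX and 10.1, 9.35, 3.82 and 2.85 in AVF+NX (3.69-fold, adjusted p = 0.0218, and 0.0521 to 0.077 when library 2 of AVF+NX or any Sham library was left out). AVF+NX libraries 1 and 2 were the high ones for Mki67 and Top2a, and library 1 was the high one in NX. Cenpf, a kinetochore protein, rose from 0.733, 0.621 and 1.06 CPM in Sham to 7.19, 6.297, 3.95 and 2.94 in AVF+NX, with 5.21, 1.17, 2.36 and 1.92 in NX (6.35-fold, adjusted p = 0.00396). Smc4 had the smallest p of the module in heart and a small rise: 23.9, 20.6 and 24.6 CPM in Sham, 29.9, 28.8, 31.8 and 28.2 in NX and 37.7, 38.1, 33.7 and 30.8 in AVF+NX (1.53-fold, log2 0.61 ± 0.11, adjusted p = 0.00251). The kinetochore gene Nuf2, which passed the count filter only through AVF+NX, was at 0.407, 0.311 and 0.355 CPM in Sham, 0.729, 0.562, 0.439 and 0.673 in NX and 1.13, 1.07, 0.857 and 0.9804 in AVF+NX (2.77-fold). Smc4, like Ccna2, Aspm, Tpx2, Kif20a, Ect2, Birc5, E2f1 and Mcm7, overlaps another annotated gene, so its reads cannot be fully assigned without knowing the strand setting of the counting.

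Of the spindle genes, Kif11, the kinesin that pushes the spindle poles apart, was at 0.733, 0.414 and 0.355 CPM in Sham hearts, 2.29, 1.64, 1.15 and 1.25 in NX and 3.17, 4.002, 2.197 and 1.43 in AVF+NX. Every operated heart lay above every Sham heart (5.41-fold in AVF+NX, log2 2.44 ± 0.44, adjusted p = 0.00274). Ckap2, a spindle microtubule protein, rose from 0.5704, 0.207 and 0.443 CPM in Sham to 3.21, 3.14, 2.57 and 1.69 in AVF+NX, with 1.88, 0.864, 1.48 and 0.192 in NX. It had the largest fold change of the called members in heart, 6.396-fold. Nusap1, which bundles spindle microtubules, was at 3.83, 3.002 and 2.84 CPM in Sham, 3.23, 3.67, 4.89 and 3.17 in NX and 7.05, 7.603, 6.19 and 5.97 in AVF+NX. Its NX libraries lay near Sham and its AVF+NX libraries above both groups (2.08-fold against Sham, adjusted p = 0.00301, and adjusted p = 0.0576 against NX). Aspm (6.07-fold) and Tpx2 (2.33-fold) were also called. The call of Tpx2 was lost, at adjusted p of 0.0556 to 0.128, when Sham library 1 or 3 or any AVF+NX library but 4 was left out. Kif4a, Kif20b and Hmmr were not called, at log2 fold changes of 0.66, 1.03 and 0.65.

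Among the cytokinesis genes, Anln (anillin, the scaffold of the contractile ring) was at 0.978, 0.621 and 0.621 CPM in Sham hearts, 2.5, 0.735, 1.54 and 1.73 in NX and 5.85, 4.13, 2.197 and 2.41 in AVF+NX (4.89-fold, adjusted p = 0.00473). Kif23, a motor of the central spindle, was at 0.652, 0.621 and 0.798 CPM in Sham, 2.604, 1.69, 1.26 and 1.15 in NX and 3.702, 3.56, 2.702 and 1.07 in AVF+NX (4.099-fold). No AVF+NX library of either gene fell to the Sham range. Kif20a, another motor of the central spindle, was at 1.39, 1.14 and 1.15 CPM in Sham, 2.81, 1.17, 1.26 and 1.06 in NX and 4.09, 3.56, 2.68 and 2.41 in AVF+NX, where NX library 1 alone of the NX group reached the AVF+NX range. Prc1, which bundles the microtubules of the central spindle, rose 5.11-fold (adjusted p = 0.0132, and 0.0538 without Sham library 1). Ect2 and Racgap1 were not called (log2 1.59 and 0.54).

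**Figure D2:**
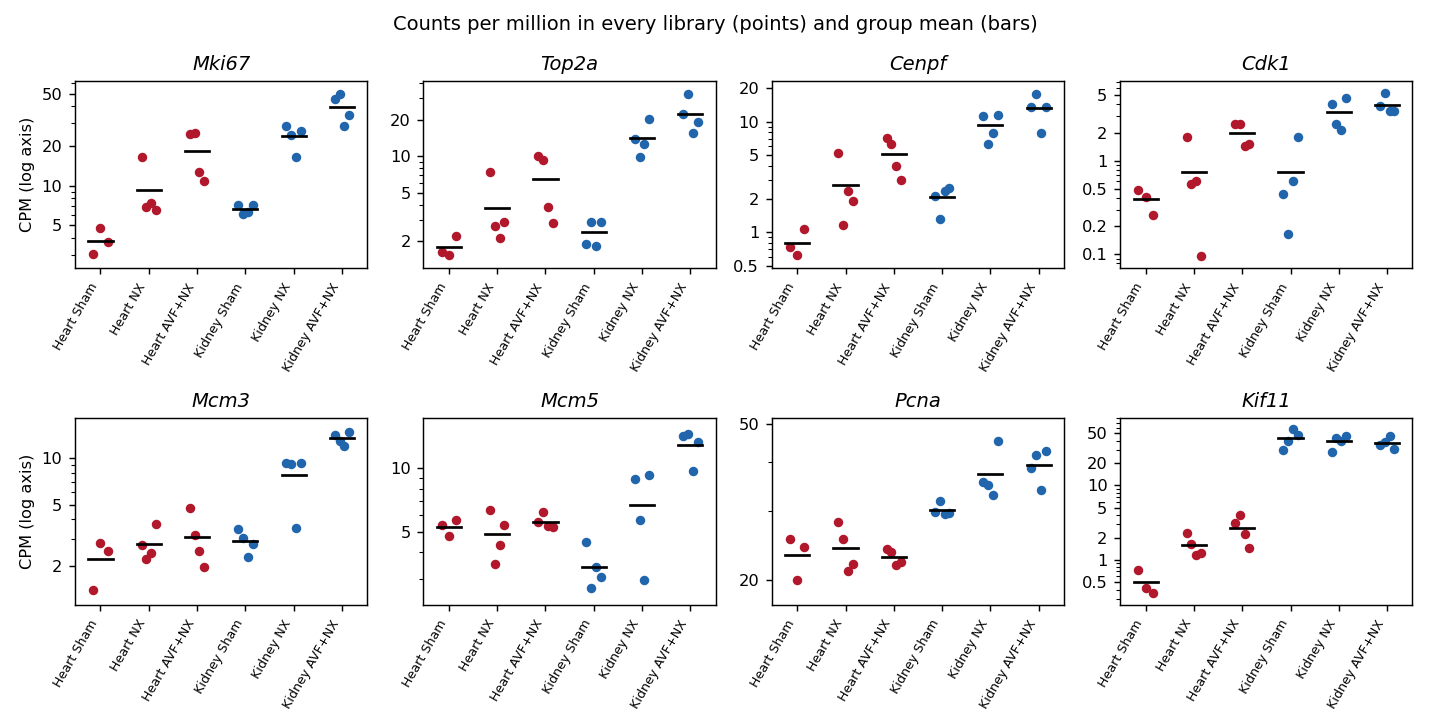
CPM (log axis) of 8 members in each of the 23 libraries, heart in red and kidney in blue, with bars at the group mean. Mki67, Top2a, Cenpf and Cdk1 were highest in the AVF+NX groups of both organs. For Mcm3 and Mcm5, AVF+NX kidneys lay above NX and Sham kidneys, and NX library 3 lay in the Sham range for Mcm5. The heart groups of Mcm3 and Mcm5 overlapped, as did the 3 kidney groups of Kif11.

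Nephrectomy alone gave no call in heart. Against Sham, 0 of 39 members and 0% of all genes were called in NX hearts by edgeR, with 7 members at an unadjusted p below 0.05. DESeq2 called 2 members and limma voom 1, where they called 2.63% and 17.7% of all genes, so nothing is read from these calls. The mitotic median was 0.49 and the S phase median 0.05 on the log2 scale. NX hearts did not overlap with Sham for 7 members, all mitotic and higher, against 6.92% of all genes. NX library 1 stood high for several members, with summed mitotic CPM of 116.8 against 72.3 to 79.0 in the other 3 NX libraries and 55.0 to 58.7 in Sham.

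Adding the fistula to nephrectomy in heart gave 0 of 39 members called by edgeR against NX, with 16 at an unadjusted p below 0.05, where 0.172% of all genes were called higher and 0.164% lower. DESeq2 called 4 members, where it called 6.21% of all genes, and limma voom called 0 members and 0 of all genes. The mitotic median was 0.83 and the S phase median 0.08. The largest values were 1.48 for Cdk1, 1.39 for Ccna2 and 1.30 for Ckap2, with adjusted p of 0.118 to 0.16. Cdk1 and Ccna2 passed the count filter only through AVF+NX. The 2 comparisons with Sham share the Sham hearts and the last 2 comparisons share the NX hearts, so they are not independent of each other.

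The heart result moved with depth, the short RNA index and other cell markers, and their part in the result was not tested except as follows. With the log2 library total as a covariate, 0 of 39 members and 2 of all genes were called in AVF+NX against Sham, at a median of 1.90 over the 16 members, against 2.16 without it. With counts thinned to the lowest heart total, an alternative chosen after seeing the data, 15 of 37 members and 31.3% of all genes were called. AVF+NX library 4, about as deep as the Sham libraries, had a summed mitotic level of 89.9 CPM. That was above the Sham range (55.0 to 58.7), inside the NX range (72.3 to 116.8) and the lowest of its group. Depth and group moved together, so their parts cannot be told apart. With the short RNA index as a covariate 11 of 39 members and 179 of all genes were called, at a median of 2.98. Where 15.4% of all genes were called higher and 18.6% lower, endothelial markers were higher for 5 of 10 genes in AVF+NX hearts (summed 1154 to 1386 CPM against 879 to 1059 in Sham) and fibroblast markers for 5 of 9 (2585 to 3966 against 1713 to 2258). Macrophage markers were higher for 4 and lower for 1 of 16 (385 to 484 against 281 to 297), and T and NK cell markers higher for 2 of 10 (38.7 to 46.6 against 26.2 to 35.6), a share near that of all genes. No B or plasma cell marker passed the count filter in heart (1.87 to 2.36 CPM summed in AVF+NX and 0.98 to 2.69 in Sham).

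In kidney the called members included replication genes, 2 of 9 after nephrectomy alone and 7 of 9 after nephrectomy with a fistula. After nephrectomy alone 19 of 44 members were higher than in Sham and 0 lower, where 0.859% of all 14322 genes tested were called higher and 0.447% lower. They were 17 of 33 mitotic members and 2 of 9 S phase members, Mcm3 and Rrm2. The mitotic median was 1.64, the S phase median 0.43 and the median of all genes 0.02 on the log2 scale. NX and Sham kidneys did not overlap for 30 members, all higher (25 mitotic, 3 S phase, E2f1 and Foxm1), against 5.28% of all genes. Of the called members, Aurkb, Plk1, Pbk, Kif4a and Melk reached the count filter's level of 1.024 CPM in 0 Sham libraries. Anln, Ckap2, Bub1, Ect2, Nusap1 and Prc1 did so in 1 to 3 of the 4 libraries needed. They passed only with operated kidneys counted, Melk only with AVF+NX. The filter favours a rise in such genes, so these counts and medians are given as descriptions. The count of 19 rested on few libraries. It was 29 without NX library 3, 16 without Sham library 1, 6, 9 and 7 without NX library 1, 2 or 4, and 7, 5 and 7 without Sham library 2, 3 or 4. The count over all genes moved with it, from 187 genes to 583 without NX library 3, 151 without Sham library 1 and 19 to 52 without any other NX or Sham library. The calls of Mki67, Top2a, Cenpf, Pbk and Anln were kept in all 8 of these fits.

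After nephrectomy with a fistula 38 of 44 members were higher than in Sham kidney and 0 lower, where 15.9% of all genes were called higher and 9.18% lower. They were 30 of 33 mitotic members, 7 of 9 S phase members and E2f1. The mitotic median was 2.29 and the S phase median 0.78, with -0.01 over all genes. All 8 chromosome and kinetochore genes, all 6 cytokinesis genes, 10 of 11 cyclins and kinases and 6 of 8 spindle genes rose. The 6 members not called were Mcm7, Tyms, Foxm1, Aurka, Kif11 and Kif20b. For all 38 called members, every AVF+NX kidney lay above every Sham kidney, and 16.4% of all genes were likewise apart and higher. Bub1b, Melk and Ttk reached the filter's level (1.024 CPM in at least 4 libraries) only with AVF+NX counted, and 35 of the other 41 members were called higher. The filter favours a rise in some of these 35 too. Aurkb, Plk1, Pbk, Ndc80 and Kif4a reached its level in 0 Sham libraries and passed only with operated kidneys counted. The call of Birc5 was lost without AVF+NX library 1 or 4 (adjusted p 0.0507 to 0.0543), that of Nuf2 without any Sham library but 1 or without AVF+NX library 2 (0.0619 to 0.0781), and that of Pcna without Sham library 3 or 4 or library 2 or 4 of AVF+NX (0.0543 to 0.0616).

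Against NX kidneys, AVF+NX kidneys had 2 of 44 members higher, Mki67 and Smc4, and 0 lower, where 4.87% of all genes were called higher and 1.2% lower, so the members' share was close to that of all genes. Their log2 fold changes were 0.72 ± 0.18 (adjusted p = 0.0375) for Mki67 and 0.35 ± 0.09 (adjusted p = 0.036) for Smc4. The count of called members was 0 without AVF+NX library 1 or 2 or NX library 3, 1 without AVF+NX library 4 or NX library 1 or 2, and 7 without AVF+NX library 3 or NX library 4. In the fits with 7, 1585 and 1045 of all genes were called, against 870 with every library. The mitotic median was 0.56 and the S phase median 0.35, and 6 of 9 S phase and 13 of 33 mitotic members had an unadjusted p below 0.05. The 2 comparisons with Sham share the Sham kidneys.

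Among the replication genes in kidney, the ones that were scarce in Sham moved most. Mcm3 was at 3.45, 3.04, 2.27 and 2.79 CPM in Sham, 9.38, 9.14, 3.504 and 9.34 in NX and 14.3, 13.04, 12.1 and 14.9 in AVF+NX. NX library 3 stayed near Sham while the other 3 NX libraries were about level with each other, and AVF+NX lay above all of them (4.71-fold against Sham, log2 2.23 ± 0.27, adjusted p = 0.000135). Mcm5 was at 4.45, 2.71, 3.41 and 3.06 CPM in Sham, 8.87, 5.699, 2.94 and 9.24 in NX and 14.2, 14.5, 9.69 and 13.3 in AVF+NX (3.81-fold, adjusted p = 0.000749), again with NX library 3 in the Sham range. Rrm2, the regulated subunit of ribonucleotide reductase, was at 2.34, 2.14, 1.398 and 1.44 CPM in Sham, 4.43, 4.95, 2.83 and 7.12 in NX and 9.79, 10.2, 5.25 and 7.54 in AVF+NX. Its groups were apart from Sham in both operations (2.69-fold with adjusted p = 0.0463 in NX, 4.49-fold with adjusted p = 0.00043 in AVF+NX). The NX call of Rrm2 was lost in 7 of the 8 fits without 1 library (adjusted p 0.0578 to 0.146) and that of Mcm3 in 6 (0.0702 to 0.0989). Mcm6 rose 2.896-fold and Mcm4 1.72-fold in AVF+NX.

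The abundant replication genes moved less. Mcm2 was at 19.2, 18.01, 15.1 and 16.4 CPM in Sham, 22.4, 22.8, 17.9 and 22.6 in NX and 28.5, 24.4, 19.5 and 28.4 in AVF+NX (1.47-fold, adjusted p = 0.00992). Pcna was at 29.8, 31.8, 29.5 and 29.7 CPM in Sham, 35.7, 35.1, 33 and 45.3 in NX and 38.7, 41.7, 34 and 42.6 in AVF+NX (1.298-fold, adjusted p = 0.0207). All operated kidneys lay above Sham for Pcna, and all but NX library 3 for Mcm2, with a smaller rise than in Mcm3. Mcm7 (log2 0.30 ± 0.11, adjusted p = 0.059) and Tyms (log2 -0.12 ± 0.11, adjusted p = 0.452) were not called. Across the 44 members, Spearman's rho between the Sham level per kilobase and the log2 fold change in AVF+NX was -0.87 (-0.93 over the 9 S phase and -0.83 over the 33 mitotic members). The Sham libraries enter both axes and genes are not replicates, so this is a description only.

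E2f1, the factor that drives S phase genes, was at 3.23, 2.63, 2.62 and 2.25 CPM in Sham kidneys, 5.88, 4.52, 3.73 and 5.63 in NX and 6.73, 7.55, 4.14 and 4.79 in AVF+NX. Both operated groups were above Sham, and the call was made in AVF+NX (2.17-fold, adjusted p = 0.00456) and not in NX (log2 0.89, adjusted p = 0.0809). Foxm1 was at 4.34, 3.37, 3.32 and 2.697 CPM in Sham, 5.77, 5.48, 5.199 and 4.35 in NX and 5.75, 5.897, 3.43 and 5.298 in AVF+NX and was called in neither (adjusted p = 0.171 and 0.0646).

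Of the kinases, Pbk, a mitotic kinase, had the largest fold change of the module. It was at 0.223, 0.0822, 0.175 and 0.2697 CPM in Sham, 1.75, 1.61, 1.695 and 2.57 in NX and 1.89, 3.104, 1.21 and 2.14 in AVF+NX, a 10.02-fold rise in NX (log2 3.32 ± 0.43) and 10.7-fold in AVF+NX (log2 3.42 ± 0.43). The operated groups overlap with each other and not with Sham, whose libraries held few counts of it. Aurkb, the kinase that corrects chromosome attachment, was at 0.667, 0.7401, 0.524 and 0.899 CPM in Sham, 2.06, 2.903, 1.58 and 3.56 in NX and 4.399, 5.897, 3.53 and 3.77 in AVF+NX (6.12-fold, adjusted p = 0.000152). Plk1, a Polo-like kinase needed for mitotic entry and exit, was at 1.001, 0.822, 0.437 and 0.4495 CPM in Sham, 1.75, 2.58, 2.37 and 1.78 in NX and 4.22, 6.001, 3.23 and 3.67 in AVF+NX. For Plk1 the 3 groups stood in 3 separate ranges (6.31-fold against Sham, adjusted p = 0.000158, and log2 1.02 ± 0.28 with adjusted p = 0.053 against NX). Cdk1, Ccna2, Ccnb1, Bub1, Bub1b, Ttk and Melk also rose in AVF+NX, by 3.88-fold (Ccnb1) to 8.85-fold (Melk). Of these, Bub1b, Ttk and Melk passed the count filter only through AVF+NX. Aurka was the one kinase not called (log2 0.46 ± 0.24).

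Mki67 was at 7.12, 6.09, 6.29 and 7.102 CPM in Sham kidneys, 28.4, 24.3, 16.4 and 26.2 in NX and 45.6, 49.2, 28.4 and 34.6 in AVF+NX. It rose 3.596-fold in NX (adjusted p = 0.00402) and 5.94-fold in AVF+NX (adjusted p = 2.66e-05), and the 3 groups did not overlap, with NX library 1 just below the lowest AVF+NX library. Top2a was at 1.89, 2.88, 1.83 and 2.88 CPM in Sham, 13.8, 9.79, 12.7 and 20.4 in NX and 22.2, 32.4, 15.6 and 19.1 in AVF+NX, 5.97-fold and 9.31-fold above Sham. Its operated groups overlap each other through NX library 4. Cenpf was at 2.11, 1.32, 2.36 and 2.52 CPM in Sham, 11.1, 6.34, 7.91 and 11.6 in NX and 13.5, 17.9, 7.87 and 13.7 in AVF+NX (6.36-fold, adjusted p = 8.64e-05). The remaining genes of this role, Smc4, Ndc80, Nuf2, Birc5 and Cdca8, rose 1.64-fold, 5.21-fold, 3.75-fold, 1.96-fold and 1.97-fold.

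The chromokinesin Kif4a was at 0.445, 0.576, 0.349 and 0.2697 CPM in Sham kidneys, 2.27, 1.07, 1.24 and 2.32 in NX and 3.501, 3.41, 2.83 and 3.67 in AVF+NX (7.96-fold, adjusted p = 0.000107), in 3 ranges that did not overlap. Tpx2, the activator of Aurora A on the spindle, was at 1.33, 3.54, 1.92 and 2.16 CPM in Sham, 7.32, 5.05, 4.97 and 7.51 in NX and 10.6, 11.9, 7.26 and 8.56 in AVF+NX (4.21-fold, adjusted p = 0.000272). Aspm, a spindle pole protein, was at 3.12, 3.45, 3.58 and 3.87 CPM in Sham, 6.805, 5.27, 5.65 and 8.402 in NX and 10.9, 14.8, 7.67 and 9.58 in AVF+NX (3.05-fold, adjusted p = 0.000293). Both operated groups of Tpx2 and Aspm were wholly above Sham. Ckap2, Nusap1 and Hmmr rose by 5.96-fold, 3.83-fold and 2.61-fold. Kif11 went against this pattern. It was at 30.3, 39.4, 57.3 and 47.7 CPM in Sham, 27.7, 43.9, 39.8 and 45.6 in NX and 35.1, 37.9, 46.5 and 30.97 in AVF+NX, in overlapping ranges with a log2 fold change of -0.22 ± 0.20. Its Sham kidney mean of 43.7 CPM compares with 0.501 CPM in Sham heart.

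Of the 6 cytokinesis genes, 5 were called higher in NX kidneys and 6 in AVF+NX kidneys. Ect2, which activates RhoA at the cleavage site, was at 1.001, 1.15, 1.22 and 0.899 CPM in Sham, 3.61, 3.12, 3.62 and 7.46 in NX and 7.54, 9.41, 4.94 and 6.01 in AVF+NX (6.45-fold, adjusted p = 0.000158). Anln was at 0.779, 0.987, 1.05 and 1.26 CPM in Sham, 4.54, 3.98, 4.18 and 4.25 in NX and 6.01, 7.45, 3.13 and 6.01 in AVF+NX, 4.102-fold and 5.47-fold above Sham. Prc1 was at 1.001, 2.22, 2.36 and 2.79 CPM in Sham, 8.35, 7.42, 6.22 and 8.45 in NX and 10.9, 13.6, 5.85 and 10.3 in AVF+NX (4.77-fold, adjusted p = 0.000222). In all 3 genes Sham stood apart from both operated groups, which overlapped each other. Kif20a, Kif23 and Racgap1 rose 2.64-fold, 4.16-fold and 3.02-fold.

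Leukocyte, fibroblast and tubule markers moved with the kidney groups, and their part in the result was not tested beyond the fit that follows. In AVF+NX against Sham, where 15.9% of all genes were called higher and 9.18% lower, 16 of 16 macrophage markers were higher (summed 1454 to 3123 CPM against 371 to 471), as were 10 of 11 T and NK cell markers (162 to 270 against 37.7 to 47.0), 8 of 8 B and plasma cell markers (816 to 2616 against 3.23 to 5.79) and 7 of 9 fibroblast markers (3109 to 6996 against 662 to 922). Tubule markers were lower for 6 of 11 (13990 to 19990 CPM against 24710 to 26770). In NX the summed macrophage level was 459 to 1385 CPM and the B and plasma cell level 26.3 to 181. A leukocyte index over the 35 markers tested was -1.06 to -0.88 in Sham, -0.81 to 0.37 in NX and 0.86 to 1.35 in AVF+NX, with no overlap between groups, and the lowest NX value was that of library 3. With this index as a covariate, 0 of 44 members and 0 of all 14322 genes were called in any of the 3 kidney comparisons. The median over the 38 members was then 1.04 on the log2 scale, against 2.20 without it, and 32 of 38 stayed above 0. The 6 that turned negative were Mcm2 (-0.13), Mcm4 (-0.19), Mcm5 (-0.27), Mcm6 (-0.17), Pcna (-0.17) and Nuf2 (-1.44). Their edgeR adjusted p in that fit was 0.867 to 0.965, so these signs are not resolved. The S phase minus mitotic difference in AVF+NX was -1.53 in that fit and -1.51 without the index.

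**Figure D3:**
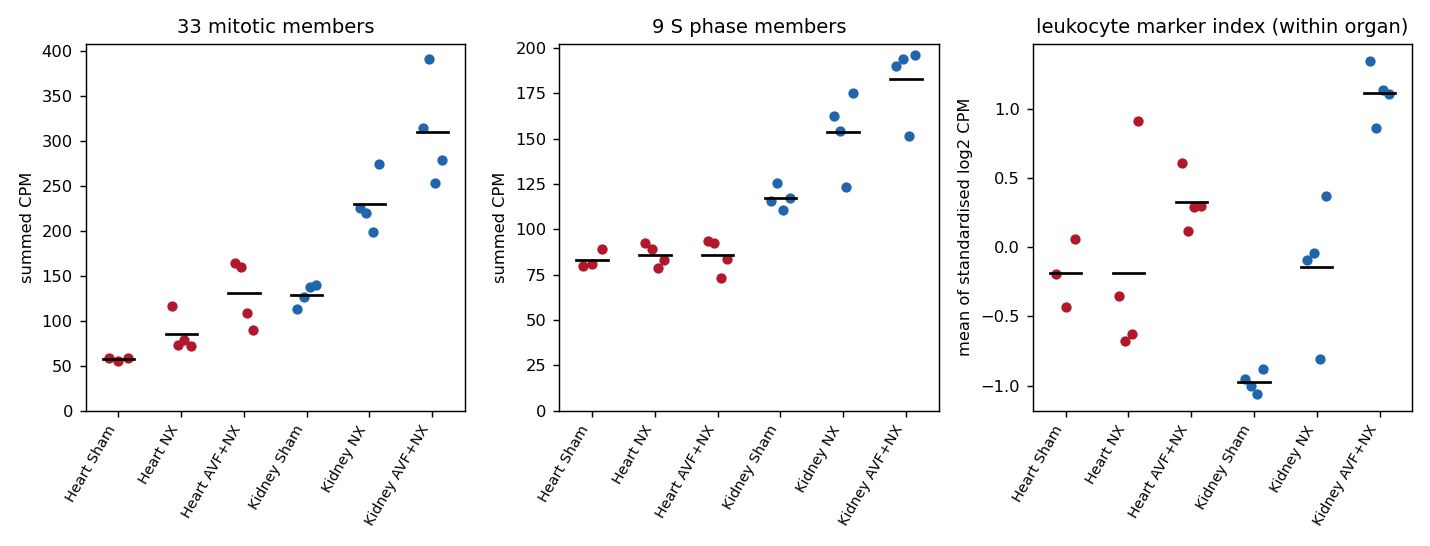
Summed CPM of the 33 mitotic and of the 9 S phase members, and the leukocyte index (mean standardised log2 CPM, set within each organ), in each library with bars at the group mean. Mitotic sums were 113 to 139 CPM in Sham kidney, 199 to 274 in NX and 253 to 391 in AVF+NX, S phase sums in heart overlapped in all 3 groups, and the leukocyte index separated the 3 kidney groups.

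The gap between S phase and mitotic members was below 0 in all 6 comparisons within an organ, which share samples. In AVF+NX hearts too, Spearman's rho between the Sham level per kilobase and the log2 fold change was below 0. It was -0.75 over 39 members, -0.82 over the 9 S phase and -0.66 over the 28 mitotic members. The Sham level's part in the gap was not tested. The S phase median minus the mitotic median was -0.44 in heart NX, -1.30 in heart AVF+NX, -1.20 in kidney NX and -1.51 in kidney AVF+NX, each against Sham, and -0.745 in heart and -0.215 in kidney for AVF+NX against NX. In heart 7 of the mitotic members, and in kidney 3, reached the filter's level only with AVF+NX counted. Other mitotic members reached that level in 0 Sham libraries and passed only with operated organs counted. Among them were Kif11 and Kif23 in heart and Aurkb, Plk1, Pbk, Ndc80 and Kif4a in kidney. The filter thus favours a gap below 0 in the comparisons with Sham and in those that hold AVF+NX. The gaps are therefore given as descriptions. In single libraries, the S phase minus mitotic median log2 CPM had a pooled SD within groups of 0.438 in heart and 0.193 in kidney. This is a spread of levels between replicates and not an error of the gap between groups. The heart NX gap and the kidney gap for AVF+NX against NX are about that size. The latter was -0.03 in the fit without 1 library that left it smallest. Summed over members, mitotic genes held 57.4 ± 2.07 CPM in Sham heart (n = 3), 85.3 ± 21.2 in NX and 130.6 ± 36.9 in AVF+NX (n = 4 each). S phase genes held 83.2 ± 5.05, 85.8 ± 6.22 and 85.7 ± 9.52 CPM in the same groups. In kidney the mitotic sum was 128.9 ± 12.1 CPM in Sham, 229.6 ± 31.9 in NX and 309.7 ± 59.9 in AVF+NX, and the S phase sum was 117.4 ± 6.19, 153.9 ± 22.2 and 182.8 ± 21.1 (n = 4 each).

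Differences between the organs were tested by subtracting the change in kidney from the change in heart, with all 23 libraries fitted together. For AVF+NX against Sham 9 of 44 members differed, 8 of them lower in heart, where 14.6% of all 15222 genes were called lower in heart and 13.3% higher. The share lower in heart (8 of 44) was near that background and the share higher (1 of 44) below it, so nothing is read from these counts. The 8 were Mcm2, Mcm3, Mcm5, Mcm6, E2f1, Aurkb, Bub1 and Kif4a, so 4 of 9 S phase and 3 of 33 mitotic members. The difference was -1.63 ± 0.43 for Mcm3 (log2 0.51 in heart and 2.23 in kidney) and -1.76 ± 0.36 for Mcm5 (0.08 and 1.93). Kif11 differed the other way, by 2.77 ± 0.51 (adjusted p = 0.000751), at 2.44 in heart and -0.22 in kidney. Kif11 was the 1 heart call not called in kidney, where 38 of 44 members were called. Neither nephrectomy alone nor the added fistula gave a member whose change differed between organs (0 of 44 in each, with 13 and 2 at an unadjusted p below 0.05, where 0.0788% and 0.867% of all genes were called lower in heart and 0.0788% and 0.25% higher). For nephrectomy alone DESeq2 gave 4 and limma voom 6 such members, where they called 2.84% and 11.6% of all genes. Leukocyte markers differed between organs too: 14 of 16 macrophage and 9 of 11 T and NK cell markers changed less in heart than in kidney in AVF+NX against Sham, and their part in the organ difference was not tested.

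**Figure D4:**
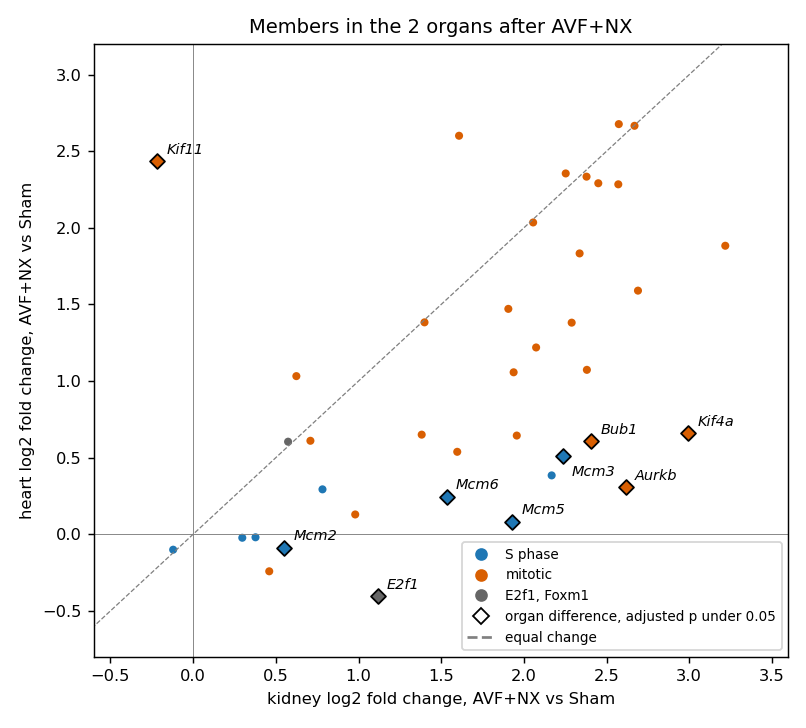
Log2 fold change of AVF+NX against Sham in heart (y axis) and in kidney (x axis) for the 39 members tested in heart, with diamonds for the 9 whose organ difference passed the test and a dashed line of equal change. Kif11 lies high on the left, and Mcm3, Mcm5, Mcm6, Aurkb, Bub1 and Kif4a lie low on the right.

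Other genes of the cycle were described by lists chosen with results of these data known. As with the members, the count filter favours a rise in genes that pass it only through the operated groups. How many genes did so was not counted for these lists. Their counts stand against the shares of all genes called: 15.4% higher and 18.6% lower in AVF+NX hearts, 0.859% higher in NX kidneys and 15.9% higher in AVF+NX kidneys, each against Sham, and 4.87% higher in AVF+NX against NX kidneys. Of other mitosis genes, 14 of 34 tested rose in AVF+NX hearts and 0 fell. Cdca3, a trigger of mitotic entry, went from 0.11 ± 0.12 CPM in Sham to 1.38 ± 0.57 in AVF+NX. Pttg1 (securin) went from 0.12 ± 0.05 to 0.81 ± 0.31 CPM, and the condensin subunit Smc2 from 9.53 ± 1.77 to 13.8 ± 1.36 CPM. The Sham means of Cdca3 and Pttg1 lay below the filter's level of 0.841 CPM. In kidney 11 of 49 rose in NX and 39 of 49 in AVF+NX, with 0 lower in either, among them Iqgap3 (5.41-fold in NX and 7.67-fold in AVF+NX) and Ube2c, the ubiquitin-conjugating enzyme that lets mitosis end (3.36-fold and 6.37-fold). Against NX, Tacc3 (log2 1.00 ± 0.22) and Prr11 (log2 1.31 ± 0.31) were higher in AVF+NX kidneys.

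Of other replication genes, 1 of 29 rose in AVF+NX hearts and 3 fell, both below the share of all genes. The 1 that rose was Gmnn (geminin, an inhibitor of relicensing, 2.03-fold), and those that fell were the polymerase subunit Pold1 (log2 -0.75), the flap nuclease Fen1 (log2 -0.90) and the dUTPase Dut (log2 -0.50). In kidney 2 of 39 rose in NX and 16 of 39 in AVF+NX, with 0 lower. Uhrf1, which helps to copy DNA methylation at the fork, went from 0.61 ± 0.46 CPM in Sham to 3.57 ± 1.31 in NX and 9.47 ± 3.07 in AVF+NX, and differed between the operated groups too (log2 1.38 ± 0.37, adjusted p = 0.0453). Clspn, a fork checkpoint protein, was at 0.044 ± 0.051 CPM in Sham, 0.735 ± 0.386 in NX and 1.78 ± 0.56 in AVF+NX. Its Sham and NX means lay below the filter's level of 1.024 CPM.

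Genes of entry into the cycle and its brakes both held called members. In AVF+NX hearts 4 of 14 entry genes rose (Ccnd2, Cdk6, Lin9 and Lin54) and 2 fell, Ccnd3 from 137.1 ± 3.90 to 69.4 ± 1.77 CPM and Cdc25a from 30.8 ± 2.11 to 23.9 ± 0.68 CPM, where 2 of 14 is below the share of all genes. In AVF+NX kidneys 5 of 17 rose, among them Mybl2 (3.87-fold), Ccne1 (3.79-fold) and Myc (1.86-fold). Of the brakes, 4 of 12 rose in AVF+NX hearts: Rbl1 (2.17-fold), Rb1 (1.58-fold), Ccng1 and Cdkn1b (both 1.23-fold). In kidney 2 of 13 rose in NX and 4 of 13 in AVF+NX. The Cdk inhibitors Cdkn1a (2.79-fold in NX, 4.34-fold in AVF+NX) and Cdkn2b (log2 2.80 and 3.48) rose in both.

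The authors' deposited table for AVF+NX against Sham hearts lists 22 of 44 members as higher (19.5% of all genes with an adjusted p), and these included all 16 called here. The authors' deposited table for NX against Sham hearts lists 0 members as higher (0.702% of all genes), with an adjusted p for 6 of them. For AVF+NX against NX hearts the authors' deposited table lists 2 members as higher (1.65%). In kidney the authors' deposited tables list 28 members as higher in NX (3.05%), 39 in AVF+NX against Sham (18.1%) and 3 in AVF+NX against NX (6.17%).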

How the data were processed

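Counts are the authors' raw read counts per gene, deposited for 23 libraries. The deposited comparison tables hold log2 fold changes, p-values and a normalised count (signal) per library, per the file headers, and only their adjusted p and direction are quoted. Per the submitters' processing notes, Trimmomatic 0.36, STAR 2.5.2b and featureCounts (Subread 1.5.2) were used. Neither the genome build nor the strand setting of the counting could be read from the labels, headers or notes used here.

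The counts were tested with edgeR 4.0.16 (filterByExpr, TMM, robust quasi-likelihood), in 1 fit per organ and 1 fit of both organs for the organ difference. P-values were adjusted by Benjamini-Hochberg over every gene in the fit, with calls at values below 0.05. CPM used TMM-adjusted totals, and a further alternative, thinning to the lowest total, was chosen after seeing the data. DESeq2 1.42.0 and limma 3.58.1 were alternatives, with other filters, covariates and each library left out. The procedure was tested on simulated data.

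The members and lists were chosen with earlier results of these data known. Members given library by library were, in each organ, the 3 of each role with the smallest p in the comparison with the most members called, and always Mki67, Top2a, Mcm2, Pcna, E2f1 and Foxm1. Nuf2 and the 5 members untested in heart were added after their values were seen. From each other list, a comparison could name 4 called genes per direction, by p. Replicates are separate samples per the labels.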

Additional observations from a re-analysis of the deposited data

Results flagged for a closer look

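In 97 sets of 4 libraries (1 member in 1 group each), 1 library stood far from the others in 9, where chance flags about 1 in 20. The sets reuse the same libraries and are not independent, so the 9 are not weighed against that share. Heart NX library 1 was high for Mki67 (16.5 CPM, others 6.54 to 7.36), Ccna2 (1.67, others 0.192 to 0.439), Kif20a (2.81, others 1.06 to 1.26) and Top2a (7.39, others 2.14 to 2.89). Kidney NX library 4 was high for Pbk (2.57 CPM, others 1.61 to 1.75) and Ect2 (7.46, others 3.12 to 3.62). Kidney NX library 3 was low for Mcm3 (3.5 CPM, others 9.14 to 9.38) and Mcm2 (17.9, others 22.4 to 22.8). Kidney Sham library 2 was high for Pcna (31.8 CPM, others 29.5 to 29.8).

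The change in AVF+NX against Sham differed between heart and kidney (edgeR, heart minus kidney on the log2 scale) for 9 members, where 14.6% of all genes were called lower in heart and 13.3% higher, so 8 of 44 lower is near the background and 1 of 44 higher below it. It was lower in heart for Mcm2 (-0.55), Mcm3 (-1.63), Mcm5 (-1.76), Mcm6 (-1.20), E2f1 (-1.43), Aurkb (-2.22), Bub1 (-1.71) and Kif4a (-2.25), and higher for Kif11 (2.77).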

How the results depend on the processing

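Members called in AVF+NX against Sham hearts numbered 13 to 19 with 1 library left out, where 2724 to 4236 of all genes were called. With the log2 total as a covariate they numbered 0, with 2 of all genes. In AVF+NX against NX hearts they numbered 0 to 1 with a library left out, where 0 to 695 of all genes were called. They numbered 1 with no count filter (124 genes in all), 4 with DESeq2 (6.21% of all genes) and 4 with the short RNA index (80 genes in all). In NX against Sham hearts DESeq2 gave 2 and limma voom 1 (2.63% and 17.7% of all genes called). Every fit without 1 library gave 0 members there, where 0 to 538 of all genes were called. In NX against Sham kidneys the count was 5 to 29 with a library left out, where 19 to 583 of all genes were called. It was 5 at an adjusted p below 0.01 (13 genes in all), 30 with DESeq2 (5.83% of all genes, against 1.31%) and 0 with the leukocyte index (0 in all). In AVF+NX against Sham kidneys the count was 36 to 41 with a library left out, where 2313 to 4428 of all genes were called. With the leukocyte index it was 0, with 0 of all genes, and Mcm2 (-0.13), Mcm4 (-0.19), Mcm5 (-0.27), Mcm6 (-0.17), Pcna (-0.17) and Nuf2 (-1.44) turned negative, with signs not resolved (edgeR adjusted p 0.867 to 0.965). In AVF+NX against NX kidneys the count was 0 to 7 with a library left out, where 324 to 1585 of all genes were called. It was 0 at an adjusted p below 0.01 (1.08% of all genes), 1 with no filter (2.96%), 6 with DESeq2 (10.6%) and 9 with limma voom (7.72%). It was 0 with only those 2 groups in the fit (1.89%), 5 with the log2 total (7.19%) and 0 with the leukocyte index (0%). With a library left out, organ differences numbered 6 to 10 for AVF+NX against Sham (3317 to 4347 genes in all). They numbered 0 to 3 for NX against Sham (0 to 452 genes in all), with 4 for DESeq2 and 6 for limma voom (2.84% and 11.6% of all genes). For AVF+NX against NX they numbered 0 (50 to 703 genes in all). The cause was not tested.

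The S phase minus mitotic median with a library left out was -0.82 to -0.39 in heart NX, -1.47 to -1.08 in heart AVF+NX, -1.20 to -0.68 in heart AVF+NX against NX, -1.36 to -1.03 in kidney NX, -1.60 to -1.27 in kidney AVF+NX and -0.30 to -0.03 in kidney AVF+NX against NX. With the short RNA index it was -1.75 in heart AVF+NX. The labels do not say that a replicate number marks a shared origin. Deviations of same-numbered libraries correlated above 0.1 in 1 of 10 heart pairs (median -0.009) and 7 of 12 kidney pairs (median 0.17), against 1 of 30 (0.007) and 6 of 36 (-0.011) pairs of different numbers, and 2 of 11 heart and 6 of 12 kidney libraries correlated best with their own number. Since not every pair was above 0.1, the numbers were not taken as pairs, and the kidney values are a hint from the data. With a replicate block, 17 members were called in AVF+NX against Sham hearts, and 28, 40 and 5 in kidney NX, AVF+NX and AVF+NX against NX, where all genes called went from 4357 to 4576, 187 to 669, 3594 to 4226 and 870 to 1647. Low counts in Sham limited the members with the lowest levels.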
